A study of Mus musculus with 9 samples.

Results

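The methionine cycle turns dietary methionine into S-adenosylmethionine, the methyl donor of the cell, and then into homocysteine. Homocysteine is either methylated back to methionine or passed by transsulfuration to cysteine, while the folate enzymes move single carbon units between serine, glycine and nucleotides. In mammals the liver carries most of this traffic, and glycine takes up surplus methyl groups there. The 10 genes described here are the liver enzymes of that route, Mat1a, Ahcy, Gnmt, Bhmt, Cbs, Cth, Mthfd1, Shmt1 and Shmt2, and the glycine transporter Slc6a9. They were chosen by name, with earlier results of these data known. Where a gene had several probe sets (20 in all for the 10 genes), the one with the highest mean value was used, and the 10 genes are 10 of 18193 that the arrays measure in this way.

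Liver RNA of 9 female C57BL/6J mice was hybridised to Affymetrix arrays of the mouse transcriptome, with 3 mice given tylosin, a macrolide, 3 given amoxicillin, a beta-lactam, and 3 control mice given no antibiotic. Tylosin was dosed at 50 mg/kg per day (0.333 mg/ml in the drinking water) and amoxicillin at 25 mg/kg per day (0.167 mg/ml), in courses on days 10 to 15, 28 to 31 and 37 to 40 of life, a scheme named pulsed antibiotic treatment (PAT). All mice, control mice included, were moved to a high-fat diet after the last course, and the liver was taken at 22 weeks by the protocol and 24 weeks by the sample labels, long after the antibiotics had stopped. Littermates were kept in the same treatment group and cage, and the litter of each array is not given, so litter and treatment cannot be told apart and p-values measure the spread between these mice only. Values are log2 expression from the robust multi-array average (RMA), and a gene was called at an unadjusted P under 0.01 with an absolute log2 fold change over 0.5 in limma, the thresholds in the methods of the study. In bulk liver, fewer cells of a type and less RNA per cell cannot be told apart.

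The defining transcripts of hepatocytes were present, and the mean of 6 of them was 13.78 to 13.88 in tylosin arrays, 13.77 to 13.86 in amoxicillin arrays and 13.71 to 13.88 in control arrays. Most of these markers lay near the top of the scale (Alb at 14.64 to 14.71), so this mean shows presence and not that levels were equal, and Tat, the dimmest, ranged from 11.46 to 12.48. A few arrays stood apart in markers of other cell types. The mean of 8 intestinal mucosa markers was 7.17 in tylosin replicate 2 and 7.38 in amoxicillin replicate 1, and 4.83 to 5.68 in the other 7 arrays. Fabp2 (11.13 and 11.03) did not stand out in these arrays, nor did Lgals4 (7.04) in amoxicillin replicate 1. Reg3b was also high in tylosin replicate 1 (7.75). The same arrays had the highest means of 5 smooth muscle markers (6.57 and 6.40, against 4.56 to 4.94) and of 4 cholangiocyte markers (4.84 and 5.22, against 4.05 to 4.27). Of the cholangiocyte markers, Epcam (6.48 and 7.10) and Krt19 (4.90 and 5.65) were the highest in these arrays. Krt7 (3.21 and 3.53) and Sox9 (4.78 and 4.62) did not stand out. The mean of 7 Kupffer cell and macrophage markers was 9.12 in tylosin replicate 3, against 7.86 to 8.84 in the other 8 arrays, but the markers did not move together. In that array Marco was 10.95 and Adgre1 9.59, the highest of the 9 arrays, as were Cd5l, Timd4 and Cd68, while Clec4f (7.50) and Vsig4 (9.40) were the lowest of the 9.

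Slc6a9 was the only one of the 10 genes called in any comparison, and it was called lower with tylosin, as were 0.44% of all genes. The share of all genes called was 1.45% for tylosin against control, 1.28% for amoxicillin against control and 0.11% for tylosin against amoxicillin, and the 10 genes gave 1 call, 0 calls and 0 calls in these comparisons. After Benjamini-Hochberg adjustment limma called 0 of 45037 probe sets in each comparison. Under an unadjusted p of 0.05 were 6722 for tylosin against control, 6657 for amoxicillin against control and 1335 for tylosin against amoxicillin. The enzymes moved little: over the 9 arrays, Cth spanned 0.82 log2 units, Bhmt 0.64, Mthfd1 0.59 and Shmt1 0.43, and Mat1a, Ahcy, Gnmt, Cbs and Shmt2 each spanned 0.35 to 0.41, while Slc6a9 spanned 1.17. The tylosin arrays lay beyond all 3 control arrays in 3 of the 10 genes (Mat1a and Cth above, Slc6a9 below), where 17.4% of all genes did so. The amoxicillin arrays did so in 1 of 10 (Ahcy, above), against 21% of all genes, and the tylosin arrays lay beyond the amoxicillin arrays in 1 of 10 (Cth, above), against 6.13%.

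**Figure D1:**
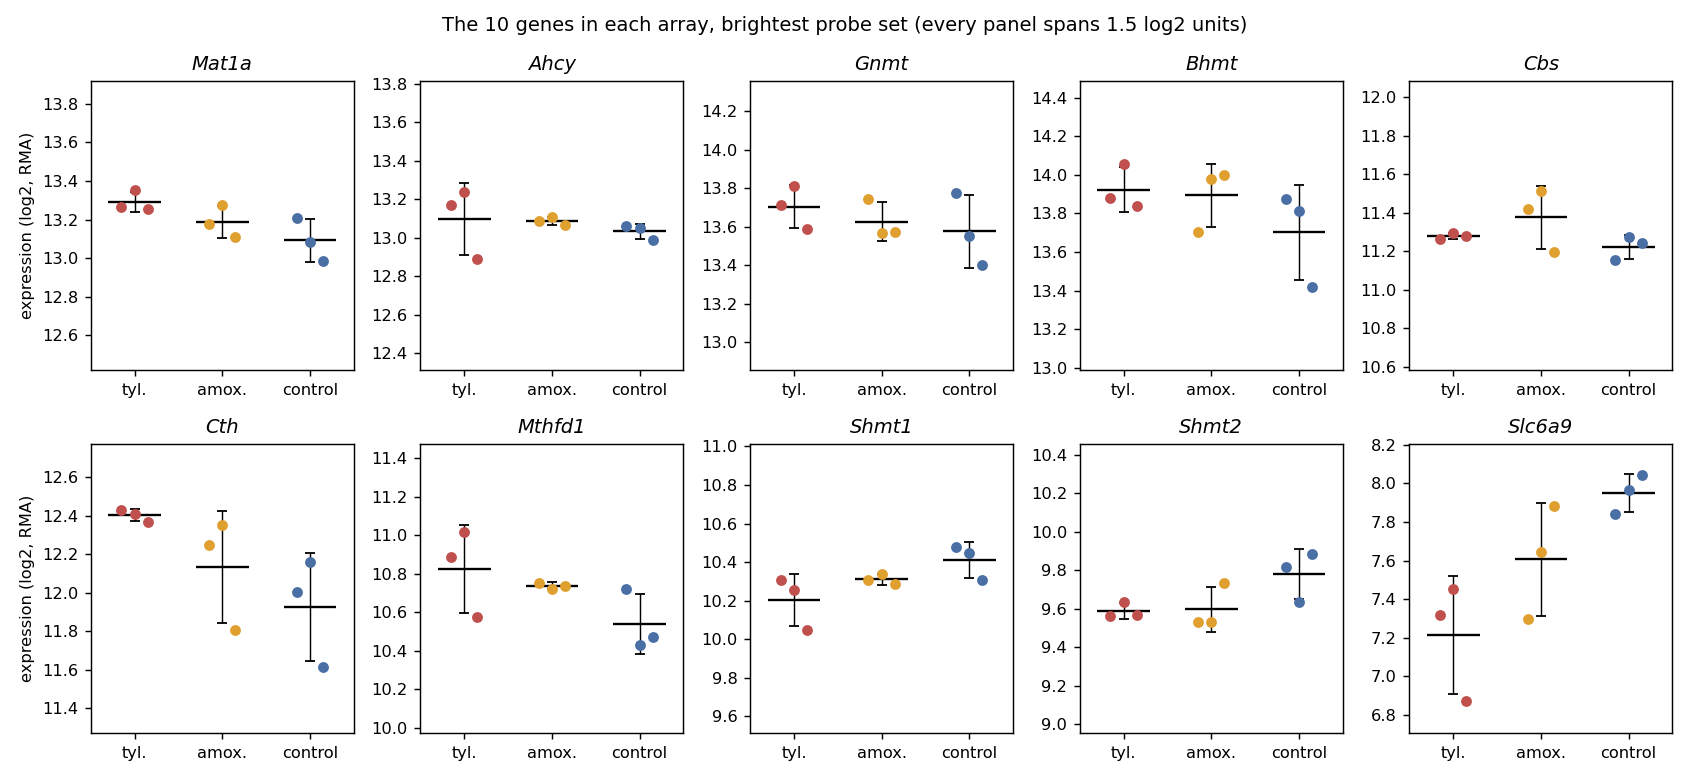
Log2 RMA expression (y axis) of the 10 genes in tylosin, amoxicillin and control livers, at the brightest probe set. Points are arrays, long bars are means and whiskers are SD (n = 3 each), and every panel spans 1.5 log2 units; the 3 tylosin arrays of Slc6a9 (6.87 to 7.45) lie below the 3 control arrays (7.84 to 8.04), and the 3 tylosin arrays of Cth (12.37 to 12.43) lie close together above them.

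In the methionine cycle none of the 4 enzymes was called. Mat1a, the methionine adenosyltransferase of adult hepatocytes that makes S-adenosylmethionine, was 13.26, 13.35 and 13.26 in tylosin livers, 13.18, 13.28 and 13.11 in amoxicillin livers, and 13.21, 13.08 and 12.99 in control livers. Its lowest tylosin array lay just above its highest control array. Tylosin gave a log2 fold change of 0.20 with a standard error of 0.09 and a 95% interval of -0.01 to 0.40 (adjusted p = 0.345 in limma), and amoxicillin one of 0.09 (interval -0.11 to 0.30).

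Gnmt, the glycine N-methyltransferase that turns glycine and S-adenosylmethionine into sarcosine, was 13.71, 13.81 and 13.59 with tylosin, 13.74, 13.57 and 13.57 with amoxicillin, and 13.78, 13.55 and 13.40 in control livers. The 3 groups overlapped, and the log2 fold changes were 0.13 with tylosin (interval -0.12 to 0.38) and 0.05 with amoxicillin (interval -0.20 to 0.30). Ahcy, which splits S-adenosylhomocysteine into adenosine and homocysteine, had a mean of 13.10 ± 0.19 with tylosin, 13.09 ± 0.02 with amoxicillin and 13.03 ± 0.04 in control livers (SD, n = 3 each). Although the amoxicillin arrays of Ahcy (13.07 to 13.11) did not overlap the control arrays (12.99 to 13.06), the log2 fold change was 0.05 and its interval was -0.17 to 0.28.

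Bhmt, which methylates homocysteine with betaine, was 13.88, 14.06 and 13.84 with tylosin, 13.71, 13.98 and 14.00 with amoxicillin, and 13.88, 13.81 and 13.42 in control livers. The low control mean came largely from control replicate 3: without that array the log2 fold change was 0.08 with tylosin and 0.05 with amoxicillin, against 0.22 with tylosin and 0.19 with amoxicillin when all arrays were used. Control replicate 3 was also the lowest of the 9 arrays in Mat1a, Gnmt and Cth, and the highest in Shmt2 and Slc6a9. Tylosin replicate 2 was the highest in 5 of the 10 genes (Mat1a, Ahcy, Gnmt, Bhmt and Mthfd1), and tylosin replicate 3 was the lowest in 3 (Ahcy, Shmt1 and Slc6a9). The brightest of these probe sets lay near the top of the scale, which ended at 14.71.

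In transsulfuration the enzyme nearest to a call was Cth, cystathionine gamma-lyase, which releases cysteine from cystathionine. Cth was 12.43, 12.41 and 12.37 in tylosin livers, 12.25, 12.35 and 11.80 in amoxicillin livers, and 12.00, 12.16 and 11.61 in control livers. The tylosin arrays lay close together and above all other arrays, while the amoxicillin and control arrays overlapped and each held 1 low array. Tylosin gave a log2 fold change of 0.48 with a standard error of 0.16 and a 95% interval of 0.12 to 0.84 (adjusted p = 0.246 in limma), just short of both thresholds. It was called when the array medians were set equal (0.53), which raised the number of genes called higher to 306, against 184, and it was called without control replicate 2 (0.59). Without control replicate 3 it was 0.32. With amoxicillin the log2 fold change was 0.21 (interval -0.15 to 0.57), and tylosin exceeded amoxicillin by 0.27 (interval -0.09 to 0.63).

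Cbs, cystathionine beta-synthase, which joins homocysteine to serine, was at almost equal levels in all groups. Its brightest probe set averaged 11.28 ± 0.02 with tylosin, 11.38 ± 0.16 with amoxicillin and 11.22 ± 0.06 in control livers, and its other probe set averaged 9.89 ± 0.05 with tylosin, 9.87 ± 0.20 with amoxicillin and 9.88 ± 0.07 in control livers (SD, n = 3 each). At the brightest probe set the intervals were -0.16 to 0.27 with tylosin and -0.06 to 0.37 with amoxicillin, so a log2 change of 0.5 lay outside both.

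**Figure D2:**
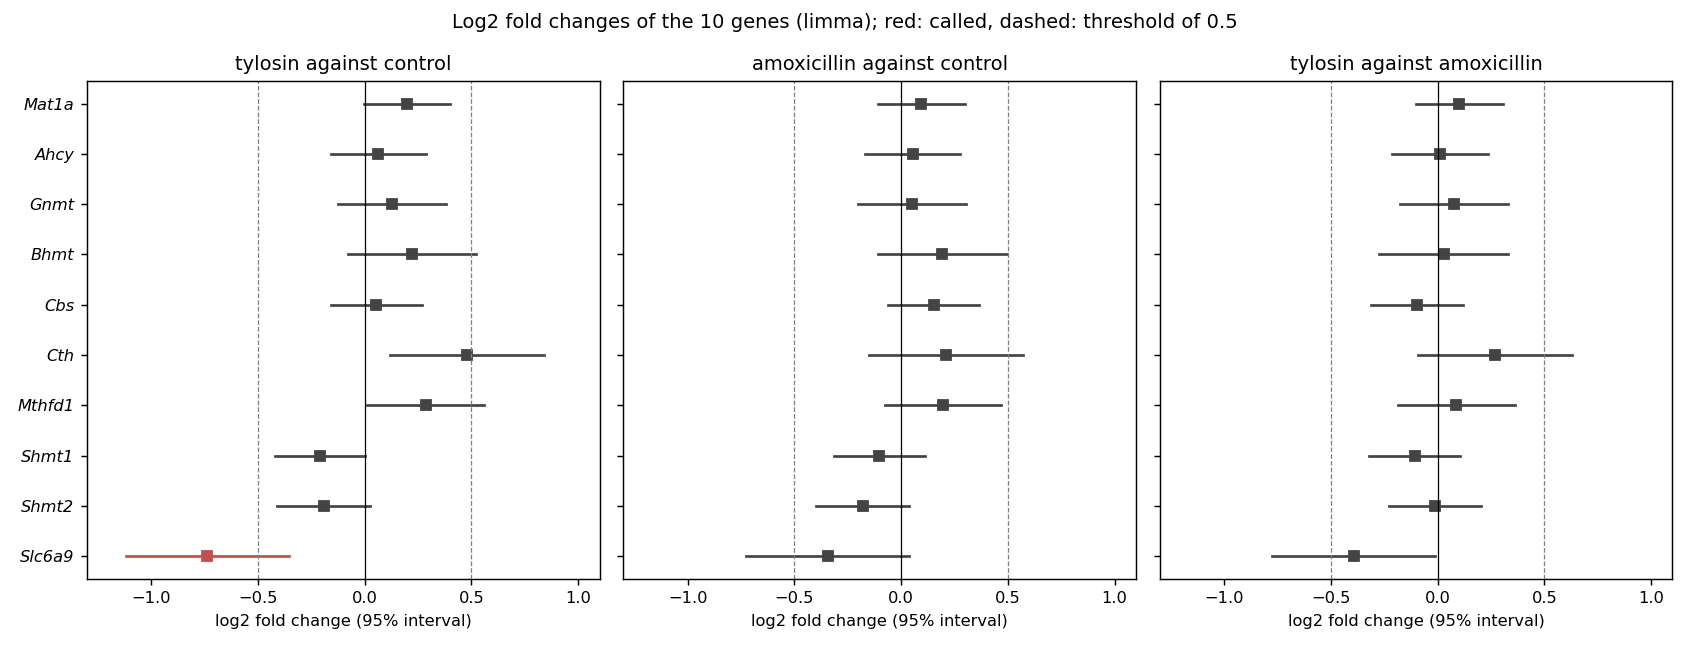
Log2 fold change (x axis) of the 10 genes (y axis) in the 3 comparisons from limma. Squares are estimates and lines are 95% intervals, red marks a call and dashed lines mark the threshold of 0.5 on the log2 scale; Slc6a9 with tylosin (-0.74) is the only red line, and the estimate of Cth with tylosin (0.48) stops just short of the threshold while its interval (0.12 to 0.84) crosses it.

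Among the folate enzymes, Mthfd1, the cytosolic enzyme with 3 activities that interconvert the folate-bound carbon units, was 10.89, 11.02 and 10.58 with tylosin, 10.75, 10.72 and 10.74 with amoxicillin, and 10.72, 10.43 and 10.47 in control livers. Tylosin replicate 3 lay below control replicate 1, so the groups overlapped. The log2 fold change with tylosin was 0.29 (interval 0.01 to 0.56, adjusted p = 0.319 from limma) and was 0.19 without tylosin replicate 2, 0.41 without tylosin replicate 3 and 0.18 with the mean of its probe sets. The other 2 probe sets of Mthfd1 did not move alike. One gave 0.01 with tylosin and 0.04 with amoxicillin, and spanned only 0.12 over the 9 arrays, while the dimmer gave 0.24 with tylosin and 0.41 with amoxicillin.

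The serine hydroxymethyltransferases take a carbon unit from serine to leave glycine, Shmt1 in the cytosol and Shmt2 in mitochondria. Shmt1 was 10.31, 10.26 and 10.05 with tylosin, 10.31, 10.34 and 10.28 with amoxicillin, and 10.48, 10.45 and 10.31 in control livers. The tylosin livers were at -0.21 on the log2 scale relative to control livers (standard error 0.10, adjusted p = 0.34 in limma), and the value was -0.13 without tylosin replicate 3. At the other 3 probe sets of Shmt1 it was -0.16, -0.05 and 0.04, so the probe sets did not share a direction. With amoxicillin the brightest probe set gave -0.10 and the other 3 gave 0.05 to 0.18.

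Shmt2 was below control in both antibiotic groups at each of its 4 probe sets, but none passed the fold threshold. At the brightest it was 9.56, 9.63 and 9.57 with tylosin, 9.53, 9.53 and 9.73 with amoxicillin, and 9.82, 9.63 and 9.88 in control livers, with log2 fold changes of -0.19 (tylosin, adjusted p = 0.384 from limma) and -0.18 (amoxicillin, adjusted p = 0.412). Control replicate 2 lay among the antibiotic arrays there. At the probe set 1426423_at the 3 tylosin arrays (8.21 to 8.35) lay below the 3 control arrays (8.50 to 8.72), at -0.32 on the log2 scale (standard error 0.10, adjusted p = 0.223), past the P threshold. At 1455985_x_at the values were 5.77, 5.93 and 6.03 with tylosin, 5.70, 5.84 and 5.87 with amoxicillin, and 6.26, 6.16 and 6.39 in control livers. There every antibiotic array lay below every control array, with log2 fold changes of -0.36 (tylosin, adjusted p = 0.206) and -0.47 (amoxicillin, adjusted p = 0.198), both past the P threshold of limma and within the fold threshold. The fourth, 1434204_x_at, gave -0.17 with tylosin and -0.21 with amoxicillin. The last 2 probe sets were close to a log2 value of 6, where values carry more of the background of the array, and the suffix x of 3 of the 4 marks probes that may match other transcripts. The 4 probe sets measure the same 9 livers and both comparisons use the same control arrays, so these values are not independent of each other. The mean of the 4 probe sets gave -0.26 with tylosin (adjusted p = 0.219 in limma) and -0.25 with amoxicillin (adjusted p = 0.26).

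Slc6a9 encodes the sodium- and chloride-coupled glycine transporter GlyT1, which brings glycine into cells. It was 7.32, 7.45 and 6.87 in tylosin livers, 7.30, 7.64 and 7.88 in amoxicillin livers, and 7.84, 7.97 and 8.04 in control livers. The tylosin arrays lay below all control arrays, and the amoxicillin arrays spread from the tylosin range up to the control range. With tylosin the level fell by 40% on the linear scale, a log2 fold change of -0.74 (95% interval -1.12 to -0.36, standard error 0.17, adjusted p = 0.188 in limma). With amoxicillin it was -0.34 (interval -0.72 to 0.04, adjusted p = 0.377), and tylosin against amoxicillin gave -0.39 (interval -0.77 to -0.01, adjusted p = 1.0), so the difference between the antibiotics was not called.

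The lowest value of Slc6a9 was in tylosin replicate 3, the array that stood apart in the Kupffer cell and macrophage markers. Without this array the log2 fold change with tylosin was -0.56, and with each array left out in turn it stayed called (-0.86 to -0.56). Without amoxicillin replicate 1, which held the intestinal transcripts and the lowest amoxicillin value, the difference of tylosin from amoxicillin was -0.55 and was called, the only one of 9 such fits with a call. It was -0.22 without tylosin replicate 3 and -0.26 without amoxicillin replicate 3. Tylosin replicate 2, in which the intestinal transcripts were also high, held the highest tylosin value of Slc6a9 (7.45). The part of these transcripts in the values of Slc6a9 was not tested. The difference of amoxicillin from control was -0.19 without amoxicillin replicate 1 and -0.48 without amoxicillin replicate 3, and it was called in neither case. The dimmer probe set of Slc6a9, 1431812_a_at, was 5.72, 5.89 and 5.81 with tylosin, 5.92, 5.82 and 5.96 with amoxicillin, and 6.18, 6.12 and 6.02 in control livers. Here the arrays of both antibiotics lay below all control arrays, with log2 fold changes of -0.30 (tylosin, standard error 0.09, adjusted p = 0.214) and -0.21 (amoxicillin, adjusted p = 0.324). Tylosin passed the P threshold of limma here, and neither value reached the fold threshold.

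**Figure D3:**
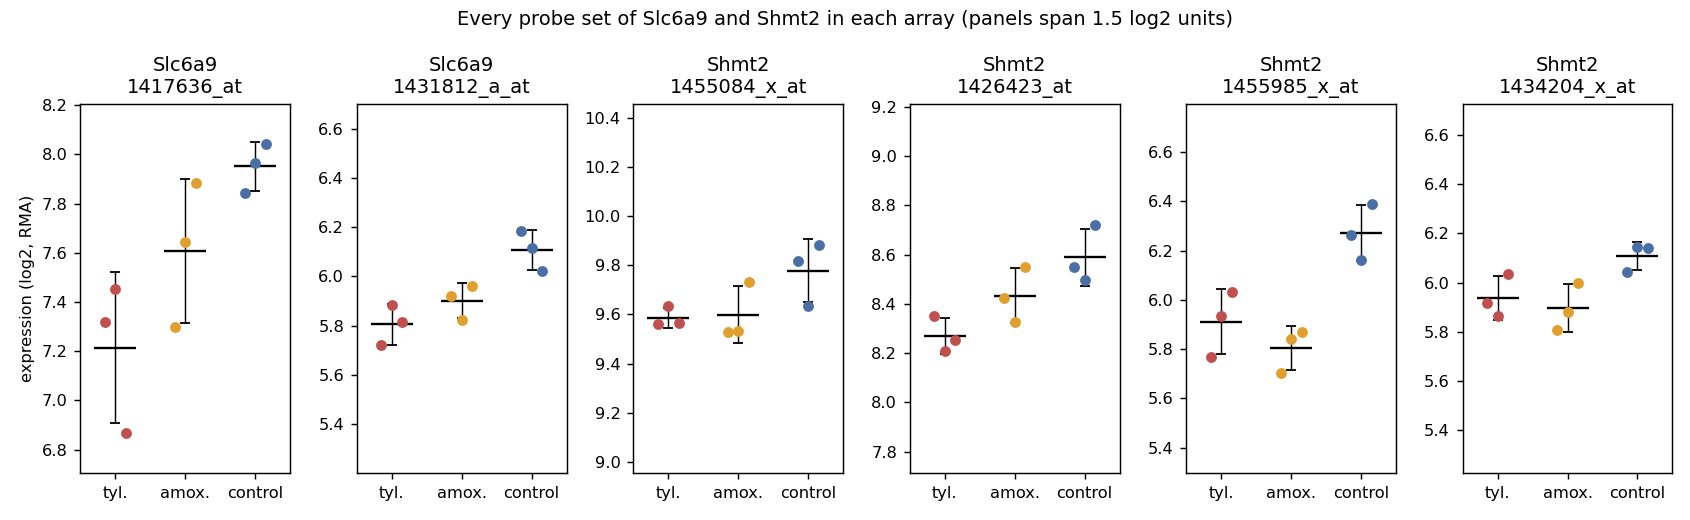
Log2 RMA expression (y axis) at each of the 2 probe sets of Slc6a9 and the 4 of Shmt2, in tylosin, amoxicillin and control livers. Points are arrays, long bars are means and whiskers are SD (n = 3 each), and panels span 1.5 log2 units; the control mean is the highest of the 3 in every panel, and at 1455985_x_at all 6 antibiotic arrays (5.70 to 6.03) lie below the control arrays (6.16 to 6.39).

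Values that moved with the tylosin group were looked at beside these results. The mean of 5 periportal markers was 11.31 to 11.50 in tylosin arrays, 11.20 to 11.48 in amoxicillin arrays and 11.10 to 11.23 in control arrays, so the tylosin and control arrays did not overlap, while that of 7 pericentral markers was 9.99 to 10.19 in tylosin arrays, 10.09 to 10.23 in amoxicillin arrays and 10.01 to 10.18 in control arrays. Of these 5 periportal markers, Cps1 and Hal were higher in every tylosin array than in every control array, and Ass1, Pck1 and Cyp2f2 overlapped. Cyp2f2 leaned the other way, at 12.44, 12.40 and 11.97 with tylosin and 12.33, 12.84 and 12.64 in control livers, so the list did not rise as a whole. The pericentral mean joined markers that did not move alike. Oat, Slc1a2 and Lgr5 were higher in every tylosin array than in every control array, and Glul, Cyp2e1, Axin2 and Cyp1a2 overlapped. Oat was 12.60 to 12.82 with tylosin and 12.18 to 12.54 in control livers. Slc1a2 was 9.49 to 9.78 and 9.39 to 9.47, and Lgr5 was 6.08 to 6.16 and 5.67 to 6.07. The mean of 4 endothelial markers was also higher in the tylosin arrays (6.99 to 7.11) than in the control arrays (6.71 to 6.93), although each of the 4 overlapped taken singly. The part of these markers in the result for Slc6a9 was not tested. The 3′ probe set of Actb minus its 5′ probe set, which grows as RNA degrades, gave 1.49, 1.73 and 1.21 with tylosin, 1.57, 1.39 and 1.57 with amoxicillin, and 1.29, 1.39 and 1.40 in control livers. Tylosin replicate 3, with the lowest Slc6a9, had the smallest of these differences for Actb. For Gapdh the same measure was 0.41, 0.53 and 0.34 with tylosin, 0.54, 0.31 and 0.39 with amoxicillin, and 0.23, 0.40 and 0.43 in control livers, and tylosin replicate 3 was not the smallest.

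The promoters of Slc6a9 and Shmt2 are shown because these 2 genes lay below control at every probe set with both antibiotics. Sequences are from RefSeq on GRCm38.p6, 5′ to 3′ on the strand of the gene, and each is the 250 bases before an annotated start. Slc6a9 has 3 annotated starts, and the window of the first is chr4:117835008-117835257 (+ strand). Shmt2 has 1, with the window chr10:127522445-127522694 (- strand). Capitals mark GC boxes (GGGCGG on either strand) in Slc6a9. In Shmt2 they mark part of the motif of NRF1, a regulator of nuclear genes for mitochondria (GCGCATG on either strand), which stands there on both strands with an overlap.
Slc6a9: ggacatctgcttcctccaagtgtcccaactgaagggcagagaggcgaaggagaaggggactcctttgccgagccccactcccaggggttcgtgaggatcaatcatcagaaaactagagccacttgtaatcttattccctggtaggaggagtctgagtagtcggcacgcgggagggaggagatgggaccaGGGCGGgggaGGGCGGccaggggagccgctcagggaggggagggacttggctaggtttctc
Shmt2: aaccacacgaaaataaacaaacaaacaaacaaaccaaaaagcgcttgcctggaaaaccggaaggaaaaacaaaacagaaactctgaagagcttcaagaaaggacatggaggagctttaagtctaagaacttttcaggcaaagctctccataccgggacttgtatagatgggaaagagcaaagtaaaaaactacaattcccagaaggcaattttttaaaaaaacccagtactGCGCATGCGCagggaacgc
The window of the first start of Slc6a9 held 2 GC boxes and the other 2 windows held 0. A GC box was in 5 of the 10 windows found for 8 of the genes (Slc6a9, Ahcy, Cbs, Mthfd1 and Shmt1) and in 32.7% of 32851 promoters, and the NRF1 motif part was in 1 of the 10 windows (Shmt2) and in 3.24% of promoters. Both motifs were chosen after the sequences were seen. The C/EBP-ATF response element (TGATGNAA on either strand), by which ATF4 acts on amino acid genes, was in 0 of the 10 windows and in 3.45% of promoters. A match is a description of the letters and not of binding.

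Of 7523 other genes with a mean log2 value over 6, those with the profile over the 9 arrays most like that of Slc6a9 were Pcx, Hspb6, Fpgs, Mmd and D230025D16Rik. Likeness was the root mean square difference between profiles, each minus its own mean, and it was 0.18 for Pcx and 0.21 to 0.23 for the others, where the SD of Slc6a9 over the arrays was 0.36. Pcx, the mitochondrial pyruvate carboxylase, was 10.93, 10.89 and 10.83 with tylosin, 10.90, 11.28 and 11.37 with amoxicillin, and 11.19, 11.31 and 11.43 in control livers, a log2 fold change with tylosin of -0.43. Fpgs, which adds the glutamate tail that keeps folate in cells, was 8.75, 8.64 and 8.37 with tylosin, 8.48, 8.88 and 9.08 with amoxicillin, and 8.92, 8.76 and 8.91 in control livers. Of the 5 genes, D230025D16Rik alone was called with tylosin (-0.50).

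Beyond the 10 genes, 92 of 100 other genes in 8 lists of the same metabolism and its regulation were measured, and few were called: 2 higher and 0 lower with tylosin, 1 higher and 0 lower with amoxicillin, and 0 between the antibiotics. The 2 calls with tylosin are 2.17% of the list genes, where the share called higher among all genes was 1.01%, and the call with amoxicillin is 1.09%, where that share was 0.835%. The median log2 fold change over the 92 genes was 0.03 with tylosin and 0.02 with amoxicillin, beside -0.01 with tylosin and -0.03 with amoxicillin over all genes. The lists were also chosen with earlier results of these data known.

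The methyl-transfer list of 11 measured genes had the largest median of the 8 lists, 0.15 with tylosin and 0.13 with amoxicillin, and held both tylosin calls. Nnmt, which spends S-adenosylmethionine on nicotinamide, was 11.12, 11.53 and 11.28 in tylosin livers, 11.25, 11.05 and 10.55 in amoxicillin livers, and 10.49, 10.52 and 10.93 in control livers. All tylosin arrays lay above all control arrays, at 0.67 on the log2 scale (standard error 0.19, adjusted p = 0.203 in limma), and leaving out either of control replicates 1 and 2 or of tylosin replicates 2 and 3 ended the call (0.56 to 0.81 over all arrays left out). The call of Nnmt was also lost with a replicate block (0.67) and without both amoxicillin replicate 1 and tylosin replicate 2 (0.56). Gatm, which makes guanidinoacetate from arginine and glycine as the first step to creatine, was 7.10, 6.44 and 6.65 with tylosin, 6.44, 6.56 and 6.37 with amoxicillin, and 6.02, 6.44 and 5.97 in control livers. Its groups touched, since tylosin replicate 2 and control replicate 2 had the same value, and its log2 fold change with tylosin was 0.59 (standard error 0.17, adjusted p = 0.212). Leaving out either of control replicates 1 and 3 or of tylosin replicates 1 and 3 ended the call (0.40 to 0.73). So did quantile normalization (0.48), array weights (0.56) and a fit without the third group (0.59). Mat2b, the regulatory subunit of the extrahepatic methionine adenosyltransferase, was 8.29, 8.06 and 7.77 with tylosin, 8.04, 7.90 and 8.11 with amoxicillin, and 7.21, 7.88 and 7.43 in control livers. Its log2 fold changes were 0.54 with tylosin and 0.51 with amoxicillin, and neither passed the P threshold. Mat2b was called higher with tylosin under median centring (0.59), array weights (0.56) and a trended and robust variance (0.54), and with each antibiotic in 2 of the 9 fits with an array left out (0.39 to 0.72 with tylosin and 0.36 to 0.70 with amoxicillin).

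Glycine and serine enzymes gave 0 calls among 12 measured genes, with a median of 0.09 with tylosin and 0.08 with amoxicillin. These medians joined shifts in both directions, from -0.39 to 0.41 with tylosin and from -0.48 to 0.45 with amoxicillin. An unadjusted p under 0.05 in limma was found for 3 of the 12 with tylosin and 5 with amoxicillin. Of all genes, 16.6% had one with tylosin and 15.5% with amoxicillin. Among the 16 transporters of glycine and small neutral amino acids, Slc6a6, the taurine transporter, was called higher with amoxicillin. It was 9.34, 9.18 and 8.87 with tylosin, 9.40, 9.40 and 9.02 with amoxicillin, and 8.49, 9.03 and 8.60 in control livers. The log2 fold change with amoxicillin was 0.56 (standard error 0.17, adjusted p = 0.246 in limma), and amoxicillin replicate 3 overlapped control replicate 2. The call was lost in 5 of the 9 fits with an array left out (0.45 to 0.72) and with the mean of its probe sets (0.20). It was also lost with quantile normalization (0.49), with a filter on dim probe sets (0.56), and without both amoxicillin replicate 1 and tylosin replicate 2 (0.4975). The other 15 transporters were not called with either antibiotic, and the median over the 16 was -0.03 with tylosin and -0.07 with amoxicillin.

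The other 5 lists gave 0 calls with either antibiotic. The median was 0.13 with tylosin and 0.05 with amoxicillin over 13 folate enzymes, and -0.04 with tylosin and 0.01 with amoxicillin over 10 genes of folate and cobalamin transport. It was -0.05 with tylosin and 0.03 with amoxicillin over 11 genes of transsulfuration and sulfur amino acids, and -0.01 with tylosin and 0.05 with amoxicillin over 5 of choline and betaine oxidation. Over 14 genes of the ATF4 and amino acid response it was -0.01 with tylosin and -0.03 with amoxicillin. Slc25a32, a mitochondrial carrier of folate, was 6.70, 6.33 and 6.33 with tylosin, 6.62, 6.18 and 6.36 with amoxicillin, and 6.28, 5.41 and 5.97 in control livers, a log2 fold change with tylosin of 0.57 that was not called. Its tylosin arrays lay above its control arrays, and without control replicate 2 the value was 0.33. Cebpb, a transcription factor of the acute phase and of nutrient stress, was 11.29, 11.39 and 11.24 with tylosin, 11.45, 11.17 and 10.98 with amoxicillin, and 11.11, 10.10 and 11.12 in control livers. Control replicate 2 set its log2 fold change with tylosin, which was 0.53 with that array and 0.19 without it.

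**Figure D4:**
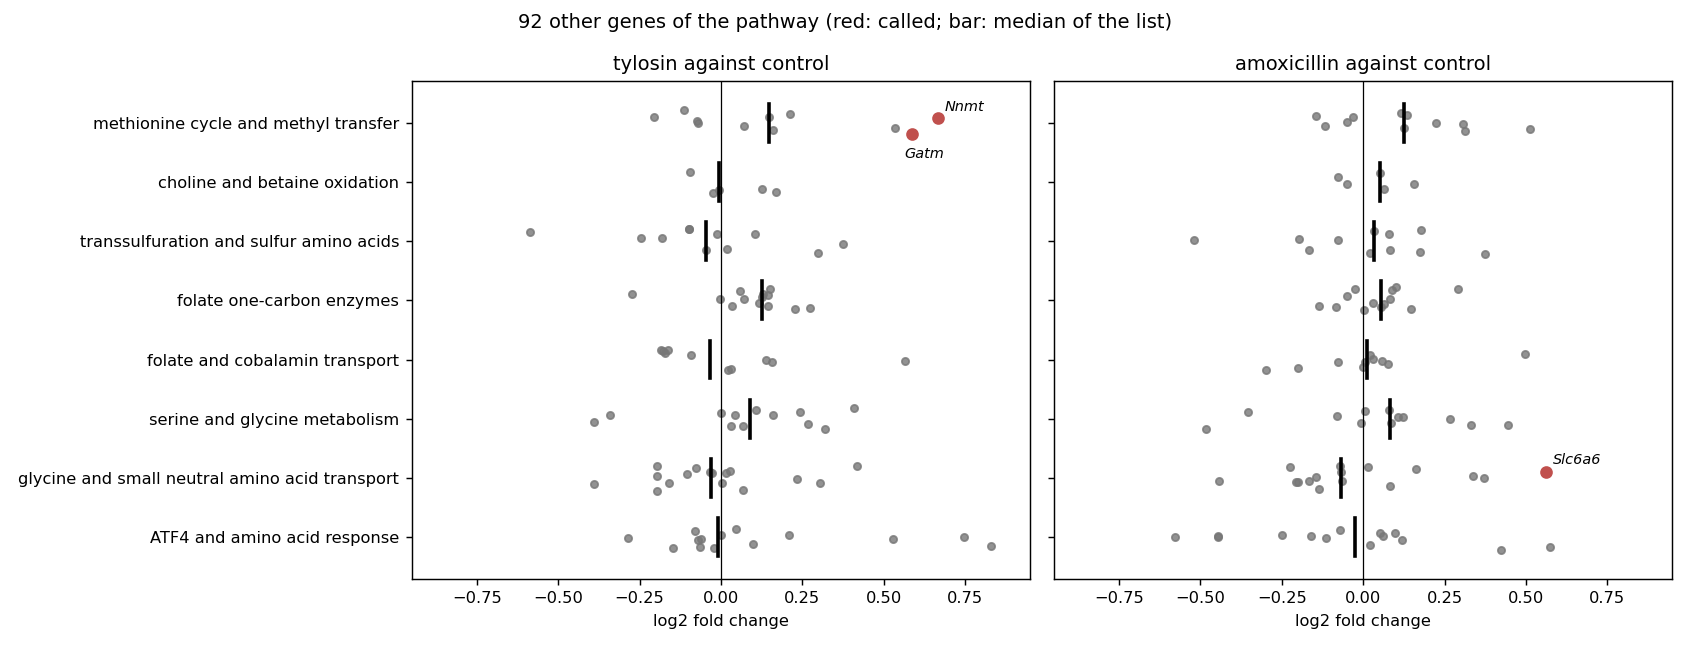
Log2 fold change (x axis) of 92 other genes of the pathway in 8 lists (y axis), for tylosin against control (left) and amoxicillin against control (right). Points are genes, red points are called, and bars are the median of each list; Nnmt (0.67) and Gatm (0.59) are the only calls with tylosin and Slc6a6 (0.56) the only call with amoxicillin.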

How the data were processed

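The authors hybridised liver RNA to Affymetrix arrays with the 3′ IVT Express kit, 1 array per mouse, and deposited log2 values normalised by RMA, for which the submitters' notes name affy. The version of affy is not known from the sources. Raw intensities were not used here. The medians of the deposited arrays ran from 3.96 to 4.06, so quantile normalization and median centring were tried as alternatives.

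Of 45101 probe sets, 64 manufacturer's controls were left out of the tests. The platform annotation gave 1 symbol for 34958 probe sets, several for 932 and none for 9211. One limma model (limma 3.58.1, R 4.3.3) was fitted to the 9 arrays, with Benjamini-Hochberg adjustment over 45037 probe sets and without a filter on dim probe sets. All 10 genes were over a log2 value of 6 in all 9 arrays. The number of arrays limits the precision. The fit was tested on simulated data. Figures were drawn with matplotlib 3.10.9.

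The genes and lists were chosen with earlier results of these data known. The text names the 10 genes, list genes that were called or that moved by over 0.5 with groups not overlapping, and the 5 genes most like Slc6a9; Mat2b, Slc25a32 and Cebpb came in by the second of these, and Pcx and Fpgs by the last. Replicate numbers were not used as pairs, since the residuals of same-numbered arrays correlated at over 0.1 in 2 of 9 pairs. Alternatives were also the adjusted p, a dim filter, array weights, a variance with trend and robust prior, fits without the third group, the mean of all probe sets, a replicate block, each array left out, and amoxicillin replicate 1 and tylosin replicate 2 left out together.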

Additional observations from a re-analysis of the deposited data

How the results depend on the processing

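The count of the 10 genes called with tylosin, 1 in the fit reported, was 2 with median centring, 0 with the adjusted p as the call and 1 to 2 with an array left out. Between the antibiotics it was 1 with amoxicillin replicate 1 and tylosin replicate 2 both left out and 0 to 1 with an array left out. With amoxicillin it was 0 under every alternative run. Slc6a9 with tylosin was called and lower in each of these except with the adjusted p as the call (-0.86 to -0.52, the smallest with the mean of its probe sets). Of 540 refitted log2 fold changes of the 10 genes, 519 kept their sign and side of the threshold, 4 passed it (Cth with tylosin and Slc6a9 between the antibiotics) and 17 changed sign. With amoxicillin, Gnmt ran from -0.037 to 0.15 with an array left out, and Shmt1 was 0.048 with the mean of its probe sets. Ahcy with tylosin ran from -0.0057 to 0.17. Between the antibiotics Ahcy ran from -0.059 to 0.12, Bhmt from -0.066 to 0.081, Mthfd1 from -0.0075 to 0.21 and Shmt2 from -0.047 to 0.055. With amoxicillin replicate 1 and tylosin replicate 2 both left out, Gnmt was -0.0072 with amoxicillin, Ahcy -0.0057 with tylosin, and Ahcy -0.060 and Bhmt -0.13 between the antibiotics. Mthfd1 between the antibiotics was -0.037 with the mean of its probe sets, and Shmt2 was 0.0092 with quantile normalization. Over all genes, 306 were called higher and 42 lower with tylosin after median centring and 107 and 125 after quantile normalization, against 184 and 80 in the fit reported. With amoxicillin they were 246 and 43 after median centring and 87 and 96 after quantile normalization, against 152 and 81. The cause of these shifts was not tested.

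With the replicate number as a block the counts were 1 with tylosin, 0 with amoxicillin and 0 between the antibiotics, and over all genes 199 were called higher and 85 lower with tylosin. Nnmt lost its call with tylosin and Slc25a32 gained one. Of the arrays, 3 of 9 arrays correlated best with their own number, and the numbers were not taken as pairs. With 3 arrays a group, the 95% intervals of the 10 genes were 0.40 to 0.76 wide in log2 units, which limits the size of change that was detectable.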
